A study of Mus musculus with 9 samples.

Results

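Of 22505 gene symbols in the expression tables of mouse germinal center B cells, 59 were detected only in the libraries of Foxo1-deficient cells. A gene was chosen by its FPKM (fragments per kilobase of transcript, normalized for library size), which had to be under 1 in all 6 Foxo1(+/+) libraries and at or above 1 in all 3 Foxo1(f/f) libraries. Small RNA names were left out. Because the members were selected on the same values that are described here, their level in Foxo1-deficient against wild-type cells is a description and not a finding. The same rule turned round gave 13 genes detected only in the wild-type LZ libraries and 11 detected only in the wild-type DZ libraries.

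The study asks how the transcription factor Foxo1 acts in germinal center B cells, and the 9 libraries fall into 3 groups of 3. Donor B cells carried B1-8hi, a knocked-in antigen receptor for the hapten NP, and ERT2cre, a Cre recombinase that acts after tamoxifen, also in the wild-type cells. Foxo1(+/+) cells (CD45.1/1) and Foxo1(f/f) cells (CD45.1/2), in equal parts, were given to C57BL/6 hosts, which kept their own blood and spleen cells. NP-CGG in alum was given on day 0, tamoxifen by mouth on days 7, 8 and 9, and spleen cells were sorted on day 12. The Foxo1(+/+) cells were sorted as LZ (light zone, CD86 high and CXCR4 low) or DZ (dark zone, CD86 low and CXCR4 high), whereas the labels name no zone gate for the Foxo1(f/f) cells (Foxo1-deficient below). All 3 sorts also took cells that carried B220 (a B cell surface marker), GL7 (a germinal center marker) and bound NP, and that lacked CD38, a gate meant to leave out other spleen cells. Genotype and gate therefore change together and cannot be told apart. Their labelled genotype, CD45.1/2, and their labelled gate, negative for CD45.2, contradict each other. Each library came from about 10000 sorted cells, and nothing in the labels ties replicates to different mice. The p-values then cover no more than sample-to-sample spread, possibly technical.

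Germinal centers form in the spleen after immunization, when activated B cells divide, mutate their antibody genes and compete for help from T cells. Foxo1 is a forkhead transcription factor that phosphoinositide 3-kinase signalling moves out of the nucleus. The spleen also filters blood, so it holds neutrophils, monocytes, red pulp macrophages, which take up old red cells, and, in mice, maturing red cells. In RNA from a bulk sort, transcripts of a few such cells are read together with those of the sorted B cells, and fewer cells of a type and less RNA per cell cannot be told apart.

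Foxo1 itself was at 3.01, 1.79 and 0.808 FPKM in Foxo1-deficient libraries 1, 2 and 3, against 14.8, 18.7 and 22.1 in LZ and 24.5, 19.5 and 19.1 in DZ. The Foxo1-deficient values lay below all wild-type values, as the labels state. The level fell by 2.82 ± 0.30 (SE) against LZ and by 3.01 ± 0.30 against DZ on the log2(FPKM + 1) scale (limma, adjusted p = 0.00113 and 0.000542). The sorted cells carried germinal center transcripts in every library: all 25 genes of a germinal center B cell list were at 1 FPKM or more in each. Bcl6, the master regulator of the state, ran from 46.5 to 68.5 FPKM in wild-type and from 77 to 94.5 in Foxo1-deficient libraries. It was not called in either comparison (log2 change 0.48 ± 0.17 (SE) against LZ and 0.53 ± 0.17 against DZ, limma, adjusted p = 0.239 and 0.155). Relative depth, estimated from the confidence intervals that Cufflinks gives, ran from 0.834 to 1.10 and was lowest in Foxo1-deficient library 3.

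The members were sorted by lists of genes typical of other spleen cells and of B cell stages. Of the 59, 29 stood in such a list: 16 in the monocyte and macrophage list, 6 in the neutrophil list, 1 in the dendritic cell list, 4 in the erythroid list, 1 in the plasma cell list and 1 in the list of naive, marginal zone, B1 and memory B cells. The remaining 30 were in none. Of the LZ and DZ genes chosen by the same rule, 1 of 13 (Ccr6, a chemokine receptor of naive and memory B cells) and 1 of 11 (Prg2, an eosinophil granule protein) stood in a list, and none in the neutrophil, monocyte, dendritic or erythroid lists. No member belonged to the T cell, NK cell, platelet, stromal, interferon or Foxo target lists.

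Promoter sequences are shown for 5 members, to let the reader see what lies upstream of genes that are high together in neutrophils (S100a8, Itgam) or in red cells (Alas2), and of the only 2 matched members with a Foxo motif (Ifitm1, Ptafr). They are RefSeq promoters on GRCm38.p6, 250 bases before to 50 bases after the start, 5′ to 3′ on the gene's strand, at chr3:90668821-90669120, chr7:128062390-128062689, chrX:150547167-150547466, chr7:140967826-140968125 and chr4:132563817-132564116, all plus strand. Capitals mark every match, on either strand, to a motif: TGTTTAC for Foxo factors, GAGGAAG for PU.1, the myeloid and B cell factor, TTGCNNAA for C/EBP factors, and AGATAA for the red cell factors named after the motif GATA.
S100a8: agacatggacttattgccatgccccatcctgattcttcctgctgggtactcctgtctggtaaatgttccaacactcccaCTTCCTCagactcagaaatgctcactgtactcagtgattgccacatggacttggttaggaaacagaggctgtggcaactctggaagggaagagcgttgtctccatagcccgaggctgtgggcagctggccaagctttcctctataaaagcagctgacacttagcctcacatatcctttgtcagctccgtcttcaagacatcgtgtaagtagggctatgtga
Itgam: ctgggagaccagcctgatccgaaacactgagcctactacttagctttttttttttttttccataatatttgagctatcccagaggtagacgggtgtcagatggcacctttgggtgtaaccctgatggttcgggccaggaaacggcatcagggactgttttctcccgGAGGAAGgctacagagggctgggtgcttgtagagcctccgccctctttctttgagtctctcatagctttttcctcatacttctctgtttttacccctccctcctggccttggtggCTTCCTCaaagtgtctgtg
Alas2: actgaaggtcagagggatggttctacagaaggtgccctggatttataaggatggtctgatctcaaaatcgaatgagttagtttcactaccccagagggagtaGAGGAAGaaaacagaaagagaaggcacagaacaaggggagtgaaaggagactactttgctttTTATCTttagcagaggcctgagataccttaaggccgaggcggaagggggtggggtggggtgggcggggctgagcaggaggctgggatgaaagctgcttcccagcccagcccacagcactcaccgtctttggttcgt
Ifitm1: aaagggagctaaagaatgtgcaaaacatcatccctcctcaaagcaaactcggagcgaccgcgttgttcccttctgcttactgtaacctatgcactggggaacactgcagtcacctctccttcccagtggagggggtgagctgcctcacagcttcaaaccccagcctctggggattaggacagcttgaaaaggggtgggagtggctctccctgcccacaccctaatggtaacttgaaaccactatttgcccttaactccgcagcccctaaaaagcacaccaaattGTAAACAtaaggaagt
Ptafr: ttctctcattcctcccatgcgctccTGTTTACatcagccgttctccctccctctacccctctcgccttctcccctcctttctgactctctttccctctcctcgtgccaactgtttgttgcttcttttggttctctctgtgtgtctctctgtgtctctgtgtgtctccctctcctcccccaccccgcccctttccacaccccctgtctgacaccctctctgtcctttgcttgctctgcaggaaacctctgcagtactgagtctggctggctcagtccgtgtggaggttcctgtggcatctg
RefSeq promoters were matched for 43 of the 59 members. The Foxo motif stood in 2 of the 43 (4.65%), against 4.05% of 27025 genes. The PU.1 motif stood in 12 (27.9%, against 15.4% of genes), among them 4 of the 6 neutrophil list members (S100a8, Csf3r, Itgam and Clec4d) 1 of 11 in the monocyte and macrophage list (S100a4), both matched erythroid list members (Alas2 and Rhd) and 5 of 21 members in no list. The GATA motif stood in 9 (20.9%, against 12.7%). These were both matched erythroid list members (Alas2 and Rhd), the dendritic list member Itgax, and 4 of 21 members in no list. The others were 1 of 11 in the monocyte and macrophage list (Ccr2) and 1 of 6 in the neutrophil list (Chi3l3). The C/EBP motif stood in 4 (9.30%, against 12.2%). A match is a description of these letters, not a binding site.

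**Figure D1:**
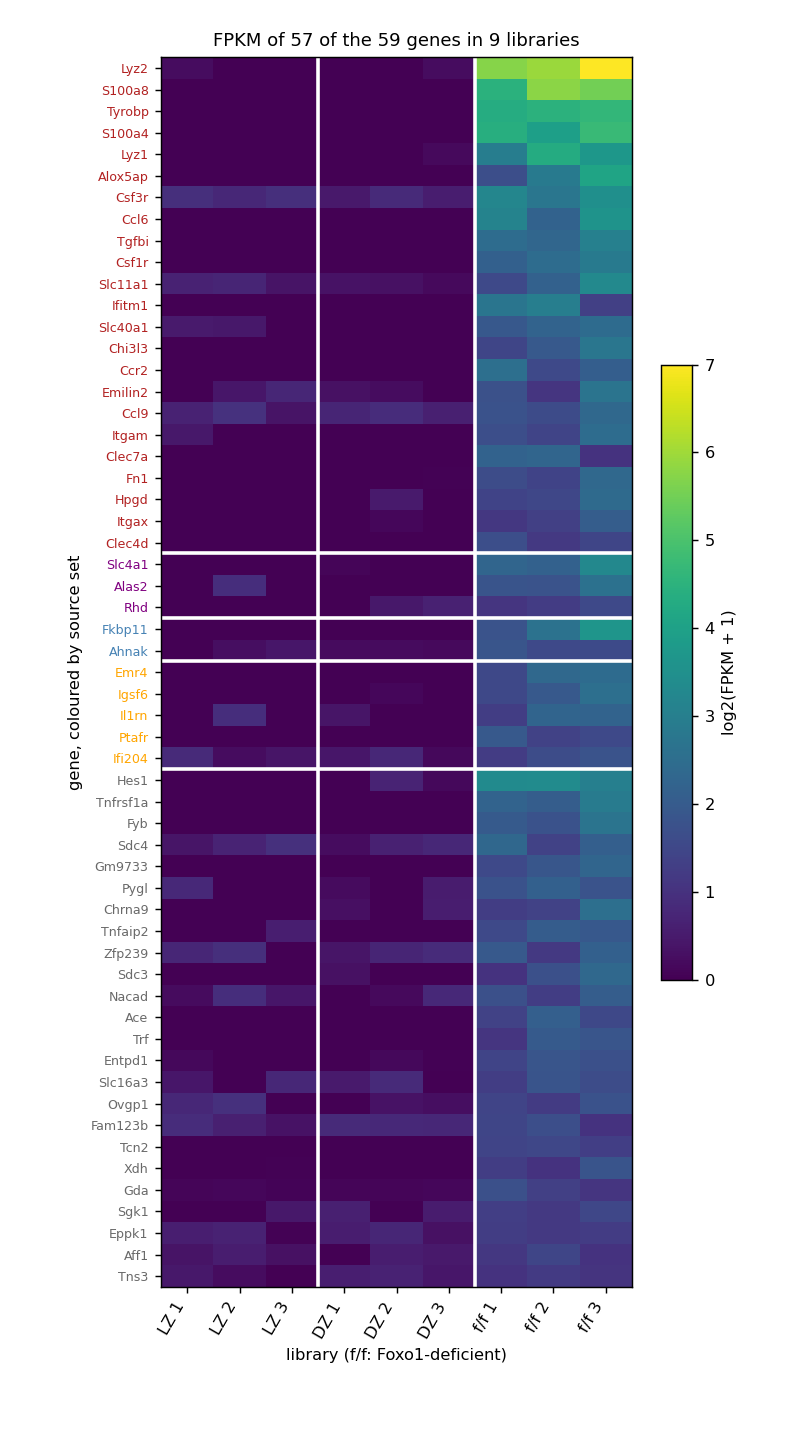
Heat map of log2(FPKM + 1) for 57 of the 59 genes (rows) in the 9 libraries (columns, f/f is Foxo1-deficient), with gene names coloured red for myeloid lists, purple for the erythroid list, blue for B lineage lists, orange for myeloid genes by textbook knowledge and grey for the rest. The highest values, up to 127 FPKM for Lyz2, are in the myeloid rows at the top, and 21 rows are at 0 in all 6 wild-type libraries.

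Over the 59 members, the mean of the 3 Foxo1-deficient libraries ran from 1.13 to 79.9 FPKM, with a median of 2.83. Only 12 had a mean of 5 or more and 5 a mean of 10 or more. The members summed to 259, 318 and 460 FPKM in Foxo1-deficient libraries 1, 2 and 3, and to between 7.02 and 11.2 in the wild-type libraries. In wild type, 22 members were listed at 0 in all 6 libraries and 37 were above 0 in at least 1. No member had an estimate marked as failed in any library. A fold is not given against groups at 0. From the confidence intervals, a member value rested on a median of 46 implied fragments, and on 6.84 at the least where the lower bound was above 0. For 1 value, Ifitm1 in Foxo1-deficient library 3 (bounds of 0 and 3.77 FPKM), no number of fragments was computed.

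Myeloid genes led the list. Lyz2, the lysozyme of macrophages and neutrophils (chr10:116714597-116719328, mm9), was at 51.6, 61.2 and 127 FPKM in Foxo1-deficient libraries 1, 2 and 3. In wild type it was at 0.174 in LZ library 1 and 0.169 in DZ library 3 and listed at 0 in the other 4. Its neighbour Lyz1, 5.52 kb away and nearly identical in sequence, was at 6.79, 18.8 and 12.0, so reads may have been split between the copies. Their sum, 58.4, 80.0 and 139, was highest in library 3 and did not overlap the wild-type range of 0 to 0.306.

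S100a8, a subunit of calprotectin, the abundant neutrophil calcium-binding protein (chr3:90472993-90473956, mm9), was at 21.1, 54.4 and 44.9 FPKM and listed at 0 in all 6 wild-type libraries. Its partner S100a9 is not a member: it was at 52.5, 56.6 and 80.5 in Foxo1-deficient libraries, but at 2.54 in DZ library 3, with 0 in the other 5. Both subunits were thus high in every Foxo1-deficient library. In wild type, only S100a9 was above 0, and only in DZ library 3, where it was over the limit of 1 FPKM. The other neutrophil list members were Csf3r, the G-CSF receptor (8.20, 5.74 and 10.2 FPKM), Ifitm1 (5.60, 6.95 and 1.53), Chi3l3, a secreted chitinase-like protein (1.73, 2.91 and 5.66), Itgam, the integrin chain CD11b (2.21, 1.70 and 4.59), and Clec4d, a C-type lectin (2.22, 1.23 and 1.75). Csf3r was not at 0 in wild type, where it ran from 0.389 to 0.941. Genes of neutrophil granules were not above 0 in every Foxo1-deficient library: Ngp and Camp were above 0 in Foxo1-deficient library 2 only (5.79 and 3.86) and Ltf in libraries 2 and 3 (3.60 and 2.70).

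In the monocyte and macrophage list, Tyrobp, the signalling adaptor DAP12, was at 19.3, 21.8 and 23.9 FPKM and S100a4 at 20.1, 14.5 and 25.6. Both were listed at 0 in all wild-type libraries. Alox5ap, needed for leukotriene synthesis, was at 2.24, 6.18 and 16.1, the steepest difference between libraries among the members. The chemokine Ccl6 was at 7.83, 3.60 and 11.1, the matrix protein gene Tgfbi at 4.59, 3.92 and 7.35, and Csf1r, the receptor that macrophages depend on, at 3.42, 4.53 and 6.37. These 4 genes were likewise at 0 in all wild-type libraries. Slc11a1, a metal transporter of the phagosome, was at 1.92, 3.50 and 8.78 against 0.125 to 0.663 in wild type. The other 7 were Slc40a1 (the iron exporter ferroportin), Ccr2, Emilin2, Ccl9, Clec7a, Fn1 and Hpgd, and the dendritic list added Itgax (CD11c, at 1.21, 1.5 and 3.18).

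Several defining macrophage markers were not detected in the same way. Cd14 was at 0 in all 9 libraries, and C1qb was at 0 in all 3 Foxo1-deficient libraries. C1qa, another chain of complement C1q, was at 0, 3.79 and 11.3 FPKM in Foxo1-deficient libraries 1, 2 and 3. Emr1 (F4/80) missed the rule at 0.999, 0.547 and 5.45. Cd68 was at 8.05, 6.37 and 17.2 in Foxo1-deficient libraries and at 2.14 to 6.09 in LZ, and was therefore no member.

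The number of list genes detected was counted first with the members, whose place on either side of 1 FPKM the rule had fixed. Of 46 neutrophil list genes, 17 to 19 were at 1 FPKM or more in each Foxo1-deficient library, against 2 or 3 in each wild-type library. Of 75 monocyte and macrophage list genes, 39 to 55 were, against 11 to 15. Of 40 erythroid list genes, 18 to 25 were, against 10 to 12. Counted without the members, the groups did not overlap for these 3 lists either. Each Foxo1-deficient library had 11 to 13 of 40 neutrophil genes, against 2 or 3 in each wild-type library. For 59 monocyte and macrophage genes the counts were 23 to 39 against 11 to 15. For 36 erythroid genes they were 14 to 21 against 10 to 12. For 34 genes of the naive, marginal zone, B1 and memory B cell list they overlapped, at 19 to 22 against 15 to 22. How many of all genes reached 1 FPKM in each library was not counted, so no share over all genes stands beside these counts. They are therefore a description only. Entries above 0 ran from 11229 to 12495 over the 9 libraries. For 31 T cell genes the counts were 2 in each Foxo1-deficient library and 1 to 6 in wild type, and for 23 NK and innate lymphoid genes 1 or 2 and 0 or 1. Cd3e, Cd3g, Cd4, Ncr1, Nkg7, Klrd1, Pf4, Ppbp, Mcpt8, Fcer1a, Col1a1 and Cxcl13, markers of T cells, NK cells, platelets, basophils, mast cells and stroma, were at 0 in all 9 libraries. Other markers of these cells were not. Pecam1, an adhesion molecule of endothelium that leukocytes also carry, was at 16.5, 11.5 and 8.69 FPKM in Foxo1-deficient libraries, 8.33, 7.44 and 11.7 in LZ and 5.10, 4.22 and 4.94 in DZ. It was higher against DZ by 1.16 ± 0.27 (SE, log2; limma, adjusted p = 0.0485) and not called against LZ (0.36 ± 0.27, adjusted p = 0.614). Under the alternatives the adjusted p against DZ ran from 0.0369 to 0.158, and without Foxo1-deficient library 1 or 2 the call was lost (limma, adjusted p = 0.148 and 0.109), as it was without any 1 wild-type library and with the replicate block (adjusted p = 0.075). Itga2b, the platelet integrin chain, was at 0.327, 0.171 and 0 in Foxo1-deficient libraries and at 0 in wild type. Cd8a was at 0.0228 in Foxo1-deficient library 1 and up to 0.364 in wild type, and Epx, an eosinophil granule enzyme, was above 0 in LZ library 2 only (0.0566).

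**Figure D2:**
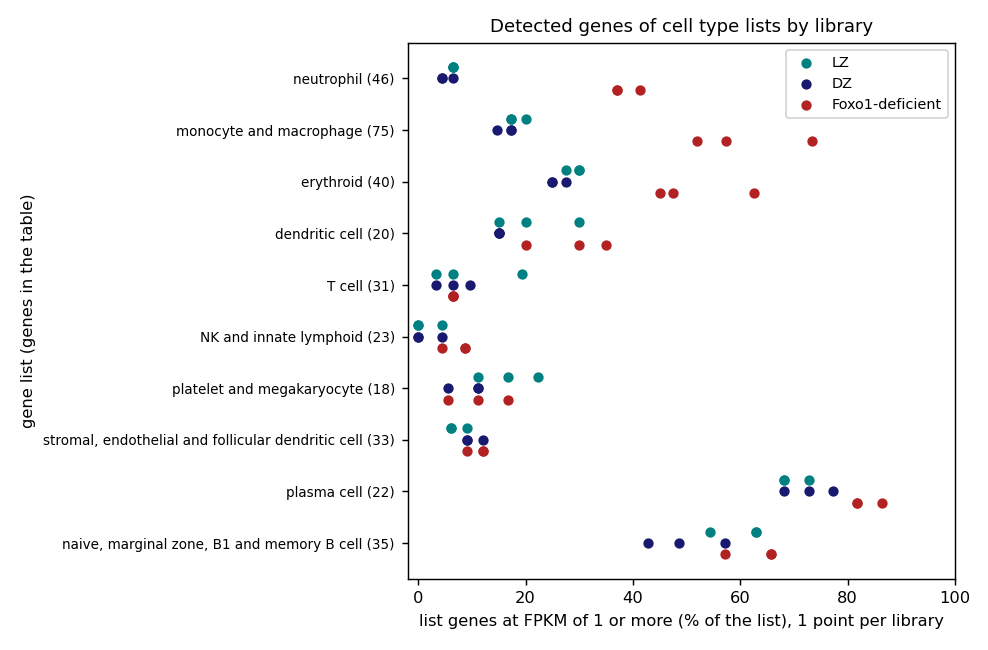
Percent of the genes of 10 cell type lists (rows, list size in parentheses) that were at 1 FPKM or more, with 1 point per library (teal LZ, dark blue DZ, red Foxo1-deficient). The 3 Foxo1-deficient libraries lie right of all wild-type libraries for the neutrophil, monocyte and macrophage, erythroid and plasma cell lists, and among them for the T cell and platelet lists. Members are included, and without its member Fkbp11 the plasma cell list overlaps (17 or 18 genes against 15 to 17). The share over all genes was not counted.

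In the fit over 10004 genes, 69 (0.69%) were called higher and 87 (0.87%) lower in Foxo1-deficient cells than in LZ, and 210 (2.1%) higher and 75 (0.75%) lower than in DZ (limma, Benjamini-Hochberg adjusted p under 0.05). All 59 members passed the filter of 1 FPKM in 3 libraries by construction. Of them 37 were called higher against LZ and 41 against DZ. These counts moved with the libraries: against LZ they were 14, 13 and 12 without LZ library 1, 2 or 3, and against DZ 18, 20 and 18 without DZ library 1, 2 or 3. Since the rule used both contrasts, nothing is read from these counts. Both comparisons share the Foxo1-deficient libraries. List genes that were not members, and that reached 1 FPKM in at least 3 wild-type libraries, owe their place in the test to no Foxo1-deficient value. Of 13 such monocyte and macrophage genes, none was called against LZ (limma, 9 at an unadjusted p under 0.05) and 5 were called higher against DZ (Cd300lf, Cd36, Cd68, Csf2ra and Sirpa). Their median log2 change was 0.85 against LZ and 1.44 against DZ, beside -0.02 and 0.12 over all genes tested. Of 3 such neutrophil genes (Anxa1, Cxcr2 and Pglyrp1), none was called in either comparison (limma, 0 against LZ and 1 against DZ at an unadjusted p under 0.05).

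The members included 4 genes of the erythroid list. Slc4a1, the anion exchanger of the red cell membrane (band 3), was at 3.83, 3.51 and 8.66 FPKM, and Alas2, the first enzyme of haem synthesis in red cells, at 2.52, 2.48 and 5.10. Rhd, of the Rh blood group complex, was at 1.11, 1.37 and 1.92. These 3 were highest in library 3. In wild type, Alas2 was at 0.895 in LZ library 2, Rhd at 0.359 and 0.551 in DZ libraries 2 and 3, Slc4a1 at 0.0606 in DZ library 1, and the rest at 0.

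The globins were far more abundant and above 1 FPKM in several wild-type libraries, so they are not members. Hba-a1 has 2 entries in the tables, each overlapping an entry of Hba-a2 (chr11:32183672-32184486 and chr11:32196489-32197303, mm9), and was not tested. Summed over its entries it was at 2.47, 0 and 4.77 in LZ, 0, 7.42 and 4.00 in DZ and 252, 204 and 184 in Foxo1-deficient libraries. Hba-a2 was at 392 in Foxo1-deficient library 3 and at most 0.0719 in the other 8. Hba-a1 and Hba-a2 together made 252, 204 and 576, against at most 7.49 in wild type, so that library 3 was the lowest of the 3 for Hba-a1 alone and the highest for the sum.

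Beta-s, a beta globin (chr7:110975037-110976442, mm9), was at 5.80, 10.2 and 20.1 FPKM in LZ, 4.84, 9.71 and 4.48 in DZ and 110, 87.5 and 321 in Foxo1-deficient libraries. Every Foxo1-deficient value lay above every wild-type value. It was higher by 3.65 ± 0.51 (SE, log2) against LZ and by 4.39 ± 0.51 against DZ (limma, adjusted p = 0.00644 and 0.00142). Hbb-b2, its near-identical neighbour (chr7:110961038-110962417, mm9), was at 16.1, 18.5 and 24.2 in LZ, 8.10, 11.9 and 8.71 in DZ and 82.6, 74.0 and 212 in Foxo1-deficient libraries. It was higher by 2.44 ± 0.35 and 3.40 ± 0.35 (limma, adjusted p = 0.0071 and 0.000621). Beta-s and Hbb-b2 were thus above 0 in all 6 wild-type libraries. Slc4a1 and Alas2, which the rule had held under 1 FPKM in wild type, were each at 0 in 5 of the 6. Both were also far lower than the globins in the Foxo1-deficient libraries, so nothing is read from this contrast. Of the 10 erythroid list genes that reached 1 FPKM in 3 or more wild-type libraries, 2 (Beta-s and Hbb-b2) were called in either comparison, both higher.

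**Figure D3:**
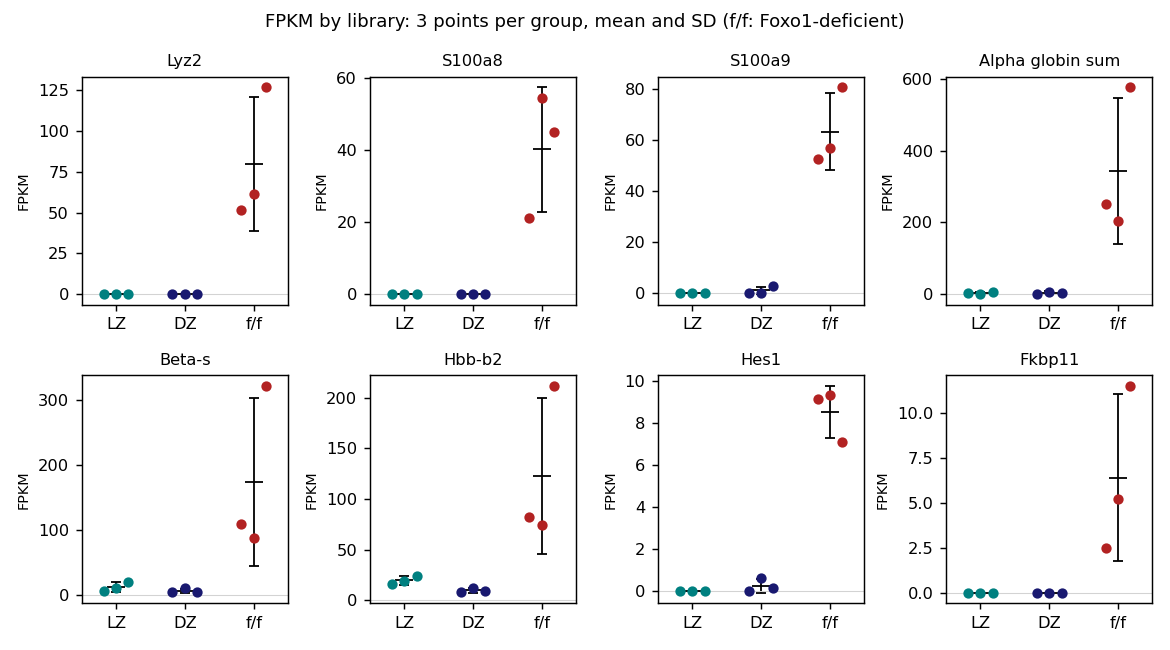
FPKM of 7 genes and of the sum of Hba-a1 and Hba-a2 (linear axes from 0) in LZ, DZ and Foxo1-deficient (f/f) libraries, with 3 points per group and the mean and SD as a bar. Foxo1-deficient library 3, the rightmost red point, is the highest for Lyz2, S100a9, the globins and Fkbp11 and the lowest for Hes1, at 7.07.

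The 3 Foxo1-deficient libraries did not carry the members at equal levels. Of the 59, 36 (61.0%) were highest in library 3, against 31.9% of the 8383 genes at 1 FPKM or more in all 3 libraries and 35.1% of the 4417 of these with a mean under 10. The median ratio of library 3 to library 1 was 1.60 over the members and 0.935 over the 8383 genes. It was 1.76 over the 23 members of myeloid lists, 2.09 over the 4 erythroid members and 1.28 over 25 members of no list. The globin sums had a like profile: library 3 to library 1 was 2.29 for alpha and 2.77 for beta globin, and library 2 to library 1 was 0.808 and 0.840, beside a median of 0.950 over the 4 erythroid members. The lysozyme sum was 1.37 times that of library 1 in library 2 and 2.37 times in library 3. Myeloid members were not uniform: Ifitm1, Clec7a, Ccr2 and Clec4d were lower in library 3 than in library 1, with ratios of 0.273, 0.292, 0.662 and 0.791. Foxo1 was lowest in library 3, where most members were highest; its part in these values was not tested.

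**Figure D4:**
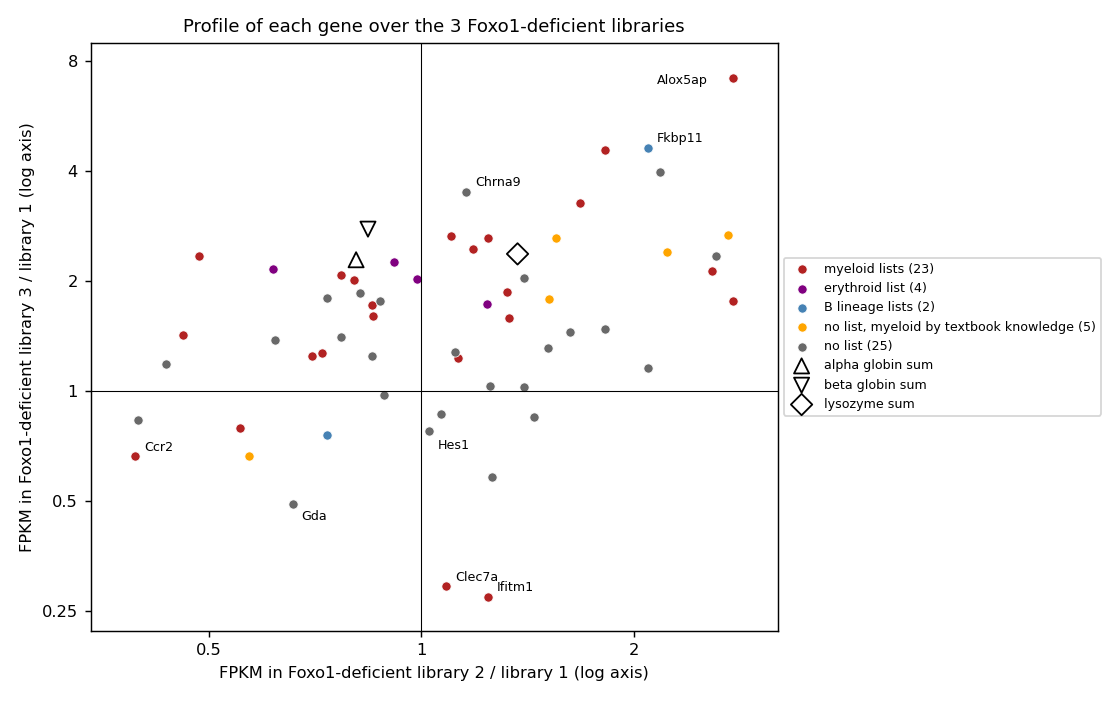
Each point is a member, with its FPKM in Foxo1-deficient library 2 over library 1 on the x axis and library 3 over library 1 on the y axis (both log axes), coloured by source set, with open symbols for the globin and lysozyme sums. All 4 erythroid members and 19 of 23 myeloid list members lie above the line of equal level in libraries 3 and 1, and Hes1 lies below it at 0.776.

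Of the 30 members in no list, 5 are myeloid genes by textbook knowledge, sorted so after the members were seen: Emr4 and Igsf6, receptors of macrophages and dendritic cells, Il1rn, the interleukin-1 receptor antagonist, Ptafr, the receptor for platelet-activating factor, and Ifi204, an interferon-inducible gene of macrophages. Emr4 was at 1.85, 4.13 and 4.44 FPKM, Igsf6 at 1.85, 2.87 and 4.85 and Il1rn at 1.40, 3.80 and 3.73. Their median ratio of library 3 to library 1 was 2.40, and 4 of the 5 were higher in library 3 than in library 1, with Ptafr (0.662) as the exception. Igsf6 overlaps Mettl9, which was at a mean of 6.60 in Foxo1-deficient and 10.9 in wild-type libraries, so its reads may in part belong to that gene.

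That left 25 members that were sorted into none of these sets, some of them known from other spleen cells too. Hes1, a transcriptional repressor best known as a target of Notch signalling (chr16:30065443-30067882, mm9), was the most abundant, at 9.11, 9.33 and 7.07 FPKM. In wild type it was at 0 in all LZ libraries and at 0, 0.628 and 0.116 in DZ. Its mean was 8.50 ± 1.24 (SD, n = 3), and its 3 confidence intervals overlapped. Its highest value was 1.32 times its lowest, beside 2.45 times for Lyz2, 3.67 for Beta-s and 2.86 for Hbb-b2. A flat profile was not particular to Hes1: this ratio was 1.23 for Tyrobp, a myeloid list member, and 1.37 for Hba-a1 alone. Other Notch genes, looked at after Hes1 was seen, did not show the same gap: Notch2 was at 1.64 to 4.51 in wild-type and 3.69 to 5.5 in Foxo1-deficient libraries, Dtx1 at 11.6 to 19.6 and 16.8 to 28.8, and Hes5 at 1.08 to 3.19 and 0 to 3.83. Hey1, Heyl, Dll4 and Jag1 were at 0 in all 3 Foxo1-deficient libraries.

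The next genes by level were Tnfrsf1a, a receptor for tumour necrosis factor (3.66, 3.19 and 6.46 FPKM), and Fyb, an adaptor of T cells, myeloid cells and platelets (2.94, 2.41 and 5.46), both at 0 in all wild-type libraries. Their profile over the libraries, 1.77 and 1.86 times higher in library 3 than in library 1, lay near the medians of the myeloid and erythroid members. Sdc4, a syndecan of the cell surface, was at 4.04, 1.60 and 3.35, and up to 0.970 in wild type. Gm9733 was at 1.91, 2.68 and 3.91, Pygl, the liver glycogen phosphorylase, at 2.42, 3.39 and 2.48, and Chrna9, a nicotinic receptor subunit, at 1.40, 1.62 and 4.9. Tnfaip2 was at 1.92, 3.13 and 2.78, Zfp239 at 2.88, 1.25 and 3.41, Sdc3 at 1.05, 2.30 and 4.19, Nacad at 2.28, 1.42 and 3.15, and Ace, the angiotensin-converting enzyme, at 1.60, 3.36 and 1.85. Among the others were Trf, Entpd1, Slc16a3, Ovgp1, Fam123b, Tcn2, Xdh, Gda, Sgk1, Eppk1, Aff1 and Tns3.

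These 25 genes lay closer to the limits than the 23 myeloid list members, which is a description, since the rule used the same values. Their level was lower too: the median of member means was 2.22 FPKM, against 4.69 in the myeloid lists. Of the 25, 13 had a wild-type value of 0.5 or more, against 4 of 23 in the myeloid lists. A lowest Foxo1-deficient value under 1.5 was found in 16, against 4 of 23. In 9 of the 25 the lowest Foxo1-deficient value was under 2 times the highest wild-type value, against 1 of 23. Their 3 confidence intervals overlapped in 12 of 25 and in 4 of 23. Of the 8383 genes at 1 FPKM or more in all 3 Foxo1-deficient libraries, 57.4% were lower in library 3 than in library 1. For the 4417 of these with a mean under 10 the share was 52.8%, so a lower value in library 3 marks no gene out. In 7 of the 25, library 3 was lower than library 1: Hes1, Sdc4, Fam123b, Tcn2, Gda, Eppk1 and Aff1. Of these, Gda, a guanine deaminase (2.30, 1.51 and 1.13), and Tcn2, a vitamin B12 carrier (1.71, 1.82 and 1.48), lay farther from wild type: Tcn2 was at 0 there and Gda at 0.0445 to 0.0808. The lowest Foxo1-deficient value was 13.9 times the highest wild-type value for Gda and 11.3 times for Hes1. The lists missed some myeloid genes, as said above, so standing in none of them places no gene in the B cells. Whether Hes1, Gda and Tcn2 come from the sorted B cells or from other spleen cells was not tested.

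The B lineage lists held 2 members. Fkbp11, a chaperone of the secretory pathway that is high in plasma cells (chr15:98554799-98558629, mm9), was at 2.48, 5.21 and 11.5 FPKM and at 0 in all 6 wild-type libraries. It was highest in library 3, by 4.63 times over library 1. Ahnak, a large scaffold protein of resting B cells, was at 2.59, 1.90 and 1.96 and at most 0.341 in wild type. Other plasma cell genes were of mixed behaviour: Igj, the joining chain, ran from 185 to 291 FPKM in Foxo1-deficient libraries, against 70.2 to 100 (LZ) and 153 to 235 (DZ), and was higher against LZ by 1.49 ± 0.22 (SE, log2; limma, adjusted p = 0.00898) but not called against DZ (0.33 ± 0.22, adjusted p = 0.508). Prdm1, the master regulator of plasma cells, was at 1.42, 0.673 and 1.39 against 0.0878 to 0.721 in wild type, and Sdc1 at 0.556, 2.33 and 0.189 against 0 to 1.76. Bhlha15, a regulator of secretory cells singled out after its values were seen, missed the rule at 0.821, 1.74 and 2.56, against at most 0.101 in wild type. Of the 15 plasma cell list genes that reached 1 FPKM in 3 or more wild-type libraries, 2 were called higher against LZ (Igj and Slpi) and, against DZ, 1 higher (Ell2) and 1 lower (Slamf7).

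The limit of 1 FPKM decided many places. Among the 5 members with the smallest lowest value were Aff1 (1.02 FPKM, against up to 0.469 in wild type), Fam123b (1.02 against 0.858), Tns3 (1.03 against 0.602) and Xdh (1.04 against 0.0357). On the wild-type side, 36 genes missed through 1 library, the nearest being 6430527G18Rik (1.00 in DZ library 2), Dub1 (1.10), St3gal4 (1.15), Mnda (1.16) and E130317F20Rik (1.20). Fcer1g, an Fc receptor chain named after its values were seen, missed in the same way, at 1.27 in DZ library 3 and 0 in the other 5, against 4.36, 15.3 and 15.1. On the Foxo1-deficient side, 137 genes missed through 1 library, 61 of them in library 1, 42 in library 2 and 34 in library 3. The nearest were Ckap4 (0.996), Tmem108 (0.993), Il1b (0.987), Gss (0.980) and Clec4e (0.970). Il1b, the cytokine of activated myeloid cells, was at 10.5, 0.987 and 8.33 and at 0 in all wild-type libraries.

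**Figure D5:**
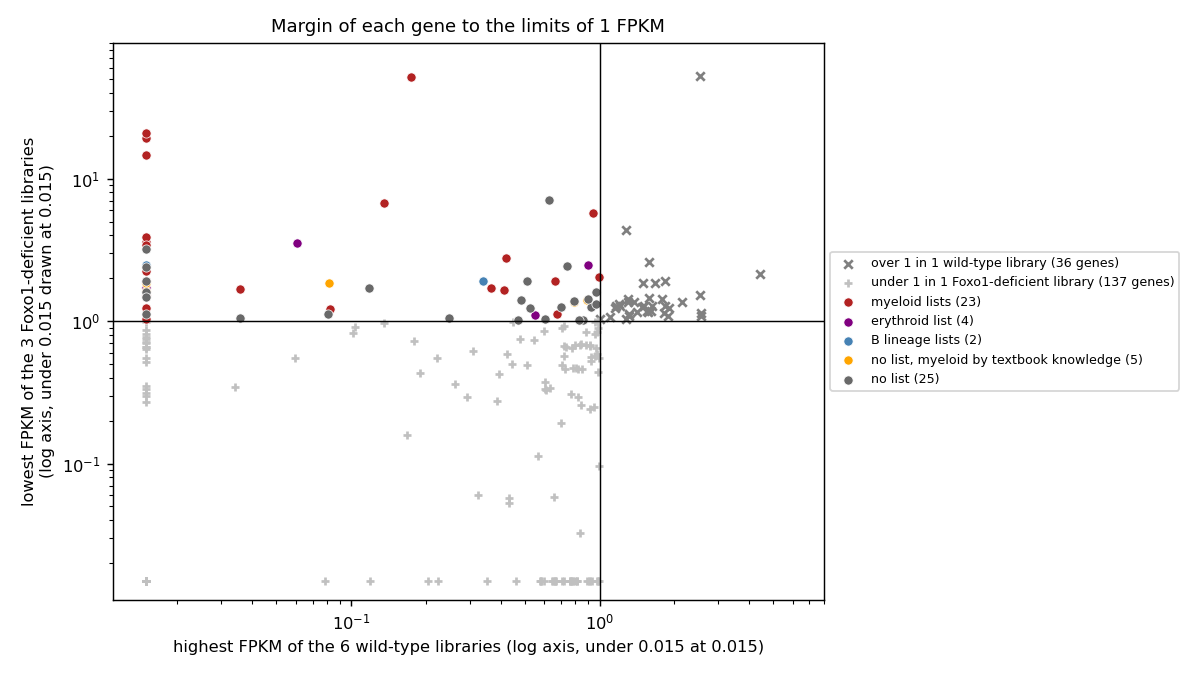
Highest wild-type FPKM (x) against lowest Foxo1-deficient FPKM (y) on log axes, with lines at the limit of 1, the 59 members as filled points coloured by source set and the 36 and 137 genes that missed through 1 library as grey crosses. Members of no list (dark grey) crowd at the corner of the limits, 9 of 25 with a margin under 2 times, while Lyz2, S100a8, Tyrobp and S100a4 lie far above it.

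On mm9, 5 pairs of members were neighbours within 1 Mb. Besides the lysozymes, these were Ccl9 and Ccl6 (9.25 kb apart), Itgam and Itgax (11.1 kb), S100a4 and S100a8 (63.0 kb) and Ovgp1 and Chi3l3 (160 kb). All but Ovgp1 and Chi3l3 are pairs of myeloid list members. The members lay on 19 chromosomes, with 8 on chromosome 11.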

How the data were processed

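RNA of 9 sorted germinal center B cell populations was sequenced. TRIzol and an NEBNext Ultra kit were used, per the labels' protocols. Cufflinks 2.1.1, TopHat2 2.0.8 and mm9 are named in the submitters' processing notes, which state neither role nor order. Each library has a Cufflinks gene table of 23700 entries in which the authors deposited FPKM, its confidence bounds and a status, per the file headers. What total FPKM was scaled to and whether strand was used are not given in the sources used here. Read totals are not in these tables, and implied fragments were computed from the intervals, taken as 2 SD of a Poisson count; 10 values of 4 short members (Lyz2, Tyrobp, S100a4, S100a8) lie above their own interval, and 1 implied fragment was worth a median of 0.0645 FPKM.

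For the rule, the FPKM of repeated symbols were summed, and 729 small RNA symbols were left out. limma 3.58.1 (R 4.3.3) with an intensity trend was run on log2(FPKM + 1), which understates the change of low genes, over the 10004 single-entry genes that reached 1 FPKM in 3 or more libraries. All 9 libraries entered 1 fit of group means, two-sided, with Benjamini-Hochberg adjustment and a threshold of 0.05, and the fit was tested on simulated data. The members and the 16 gene lists were chosen with earlier results of these data known. Named are Foxo1, Hba-a1, Beta-s and Hbb-b2, the 8 members of highest mean in each list and the 12 of highest mean in none, the 5 nearest genes on each side of the limits, and the defining cell type markers; other members are named only, some here with values. A few genes that these rules or lists include are not reported here. Same-numbered libraries were not treated as pairs in the main fit. The correlation of their deviations from the group means was -0.0674 to 0.0752, against -0.112 to 0.0503 for other pairs of libraries. These overlapping ranges do not settle whether same-numbered libraries shared mice. The closing section gives the alternatives: pseudocount, filter, scaling, replicate block, compared groups only, other limits of the rule, and each library left out. Promoters are from RefSeq on GRCm38.p6 and were not joined to the mm9 coordinates.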

Additional observations from a re-analysis of the deposited data

How the results depend on the processing

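The count of 59 genes was 88 at a limit of 0.5 FPKM (38 of them among the 59), 57 (56 of them) after median-ratio scaling and 59 with repeated symbols left out. It was 37 at a limit of 2 (19 of them among the 59), 38 at under 0.5 and at least 1, and 19 at under 1 and at least 2. Without 1 library it ran from 62 to 120: it was 120, 101 and 93 without Foxo1-deficient library 1, 2 or 3, where fewer libraries have to pass, and each of these sets held all 59. For LZ the same rule gave 13 genes, 6 at a limit of 0.5, 1 at under 0.5 and at least 1, 0 at under 1 and at least 2, and 13 to 33 without 1 library. For DZ it gave 11, then 7, 4 and 0, and 12 to 20 without 1 library.

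The fit called 156 genes against LZ and 285 against DZ. Against LZ it called 99 with a pseudocount of 0.1 and 58 with only the compared groups, and the cause was not tested. With the replicate block it called 137 and 221. Without 1 library it called 48 to 145 against LZ (52, 56 and 48 without LZ library 1, 2 or 3, and 96, 93, 90 and 82 without DZ library 1 or 2 or Foxo1-deficient library 2 or 3) and 127 to 246 against DZ (129, 140 and 127 without DZ library 1, 2 or 3, and 164 without Foxo1-deficient library 2). Of the 59 members, 37 were called higher against LZ and 41 against DZ. Against LZ, 17 were with a pseudocount of 0.1, 24 with the replicate block, 12 with only the compared groups, 23, 23 and 27 without DZ library 1, 2 or 3, and 31, 21 and 22 without Foxo1-deficient library 1, 2 or 3. Against DZ, 24 were with a pseudocount of 0.1 and 32, 28 and 31 without Foxo1-deficient library 1, 2 or 3. The filter of 2 FPKM tested 19 members and called 16 and 17. The values without 1 library given so far keep the 10004 genes that passed the filter over all 9 libraries. With the filter applied again to the 8 libraries left, the counts ran from 41 to 141 against LZ (49, 56 and 57 without LZ library 1, 2 or 3; 98, 94 and 141 without a DZ library; 97, 50 and 41 without a Foxo1-deficient library) and from 119 to 245 against DZ (130, 140 and 127 without a DZ library; 148, 119 and 149 without a Foxo1-deficient library). In that setting no member was tested without a Foxo1-deficient library, since 2 libraries cannot pass a filter of 3. Which of the pair to give as the main value was chosen after both had been seen. Of the calls, 44.2% were higher against LZ and 73.7% against DZ. Without a filter the share against LZ was 61.3%. Against DZ it was 60.8% after quantile normalization (360 calls) and 44.6% after median centring (406 calls). All tested genes had a median change against DZ of 0.12 in the main fit. It was 0.0005 after quantile normalization and -0.055 after median centring. Why the shares moved was not tested.

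Foxo1, Beta-s, Hbb-b2 and S100a9 kept their direction and side of the threshold under every alternative run for single genes. The filter applied again was not run for single genes. S100a9 passed the filter only through the Foxo1-deficient libraries, where it is high, so nothing is read from its calls. Uncalled log2 changes turned sign, but none was called in either sign. Against LZ without 1 library, Cd79a ran from -0.194 to 0.0237. Against DZ, Cd38 ran from -0.289 to 0.384 without 1 library. After median centring Cd79a was at -0.0274 and Cd38 at -0.128 against DZ, and after quantile normalization Cd38 was at -0.183. The summed FPKM of the erythroid list, 722 in Foxo1-deficient cells and 71.3 and 58.3 in LZ and DZ, was 469 without Foxo1-deficient library 3, an alternative added after the data were seen, and 82.5, 37.2 and 38.5 without globins and the 2 highest genes. The neutrophil sum, 182, 20.7 and 7.16, was 157 without that library and 78.3, 20.7 and 6.32 without its 2 highest genes, and the monocyte and macrophage sum, 584, 248 and 242, was 530 and then 418, 64.3 and 36.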
